A study of Saccharomyces cerevisiae with 8 samples.

Results

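The measurement described here is the difference between the responses of 2 budding yeast strains to 45 min of rapamycin. For each open reading frame, the log2 ratio of rapamycin to DMSO in ceg1-AA/xrn1D was taken and the same ratio in ceg1-AA was subtracted from it, both on CPM, the read counts of a gene relative to the library total after scaling by the TMM method. A positive difference therefore means that the ratio was higher in ceg1-AA/xrn1D than in ceg1-AA. All 7 libraries with a counts file entered, of 8 labelled, and 5879 of 6600 open reading frames had enough counts to be tested. The groups were 2 ceg1-AA/xrn1D libraries under rapamycin, 1 ceg1-AA/xrn1D library in DMSO, 2 ceg1-AA libraries under rapamycin and 2 ceg1-AA libraries in DMSO. Replicate 2 of ceg1-AA/xrn1D in DMSO was not analysed here, so each difference rests on 1 library in that corner of the design, and that library was assumed to vary like the other groups. All groups share the MATalpha tor1-1 background with FPR1 replaced by a NAT marker, a fusion of RPL13A to FKB12 marked by TRP, and CEG1 fused to FRB and marked by HIS. The ceg1-AA/xrn1D strain also carries a KAN marker at XRN1, except that the genotype text of its replicate 2 reads XRN3. Cells grew in YPD at 30 °C, and rapamycin was used at 1 µg/mL. No strain without the FRB fusion was analysed here, so loss of Ceg1 from the nucleus and other effects of rapamycin cannot be told apart.

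Ceg1 is the guanylyltransferase of the yeast capping enzyme, which adds the guanosine cap to the 5′ end of nascent RNA polymerase II transcripts. The cap protects an mRNA from 5′ to 3′ exonucleases and is bound by the nuclear cap-binding complex and by translation initiation factor eIF4E. Xrn1 is the main cytoplasmic 5′ to 3′ exonuclease and acts on RNAs with a 5′ monophosphate, among them decapped mRNAs. In the anchor-away method, rapamycin joins an FRB-tagged nuclear protein to an FKBP12-tagged ribosomal protein, and the export of ribosomal subunits carries the tagged protein out of the nucleus. The comparison asks for which functions the change in RNA level under rapamycin differs with XRN1 status.

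Libraries of ceg1-AA/xrn1D held 2990340 to 3385761 counts and those of ceg1-AA 935651 to 1618638. All 3 libraries of ceg1-AA/xrn1D, replicate 2 included, had 0 counts for XRN1, against 384 and 338 counts in ceg1-AA under rapamycin and 794 and 632 in ceg1-AA in DMSO. A count of 0 allows up to 3 counts, or up to 0.889 CPM in the DMSO library, the smallest of the 3 after TMM scaling. The mRNA of CEG1, which anchor-away does not target, had 51.0 and 52.6 CPM under rapamycin and 48.9 CPM in DMSO in ceg1-AA/xrn1D, against 62.9 and 65.6 CPM under rapamycin and 53.3 and 47.6 CPM in DMSO in ceg1-AA, and its responses did not differ past the threshold (difference -0.26 ± 0.26 (SE), edgeR adjusted p = 0.517). The alpha-factor gene MF(ALPHA)1, a marker of the labelled mating type, stood between 378 and 815 CPM over the 7 libraries. Mitochondrially encoded genes took 0.250% to 0.281% of the counts in ceg1-AA/xrn1D under rapamycin and 0.199% in ceg1-AA/xrn1D in DMSO, against 2.47% to 3.37% in ceg1-AA under rapamycin and 1.13% to 1.41% in ceg1-AA in DMSO. The labels do not say that replicates came from separate cultures, so the p-values measure the spread between these libraries, which may be technical.

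The responses differed for a large set of genes, and nearly all of these had a ratio that passed the threshold in ceg1-AA and did not in ceg1-AA/xrn1D. At an adjusted p under 0.05 in edgeR's quasi-likelihood test with Benjamini-Hochberg adjustment, 697 of 5879 genes (11.9%) had a positive difference and 568 (9.66%) a negative one. At an unadjusted p under 0.05 there were 2185 (37.2%). The difference was at least 2-fold for 492 of the positive genes (8.37% of all tested) and 383 of the negative genes (6.51%). In all 8 combinations of 1 library from each group it was at least 2-fold for 234 (3.98%) and 205 (3.49%), and every called gene kept its sign in all 8. Of the 697 positive genes, 669 had fallen in ceg1-AA, 1 had risen and 27 were not called there. Of the 568 negative genes, 529 had risen in ceg1-AA and 39 were not called. The median response of the positive genes was -0.06 in ceg1-AA/xrn1D and -1.25 in ceg1-AA, and that of the negative genes was -0.06 in ceg1-AA/xrn1D and 1.08 in ceg1-AA, beside 0.00 and 0.11 for all genes tested. Because the same 4 groups give the response and the difference, these medians describe the genes that were called and test nothing.

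Each strain's own response shows the same contrast in numbers. Rapamycin against DMSO gave 2 higher (0.034%) and 2 lower (0.034%) genes in ceg1-AA/xrn1D, and 1429 higher (24.3%) and 1338 lower (22.8%) in ceg1-AA. At an unadjusted p under 0.05 there were 875 genes (14.9%) in ceg1-AA/xrn1D and 3184 (54.2%) in ceg1-AA. The test in ceg1-AA/xrn1D has 1 DMSO library and the other has 2, so the 2 counts are not equally powered, and the difference of responses is the comparison that sets the strains against each other. DESeq2 called 12 higher and 22 lower genes in ceg1-AA/xrn1D, and edgeR called 178 and 190 there without ceg1-AA DMSO replicate 1, and 175 and 187 without ceg1-AA DMSO replicate 2, although those libraries enter that comparison only through the shared spread, the scaling and the set of genes tested.

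The split between positive and negative genes depended on how libraries were scaled. TMM gave 697 positive and 568 negative genes, upper-quartile scaling 548 and 823, and total counts alone 316 and 1776. The median difference of all genes was -0.10 with TMM, -0.24 with the upper quartile and -0.55 with total counts, so a difference is to be read against the median of all genes. Leaving out 1 library gave 866 positive and 670 negative genes without ceg1-AA DMSO replicate 1 and 845 and 731 without its replicate 2. For ceg1-AA under rapamycin, 349 and 275 were left without replicate 1 and 328 and 221 without replicate 2. Dropping replicate 1 of ceg1-AA/xrn1D under rapamycin gave 493 and 262. Dropping its replicate 2, the library whose genotype text differs, gave 371 and 235, of which 369 and 226 were among those called with it.

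**Figure D1:**
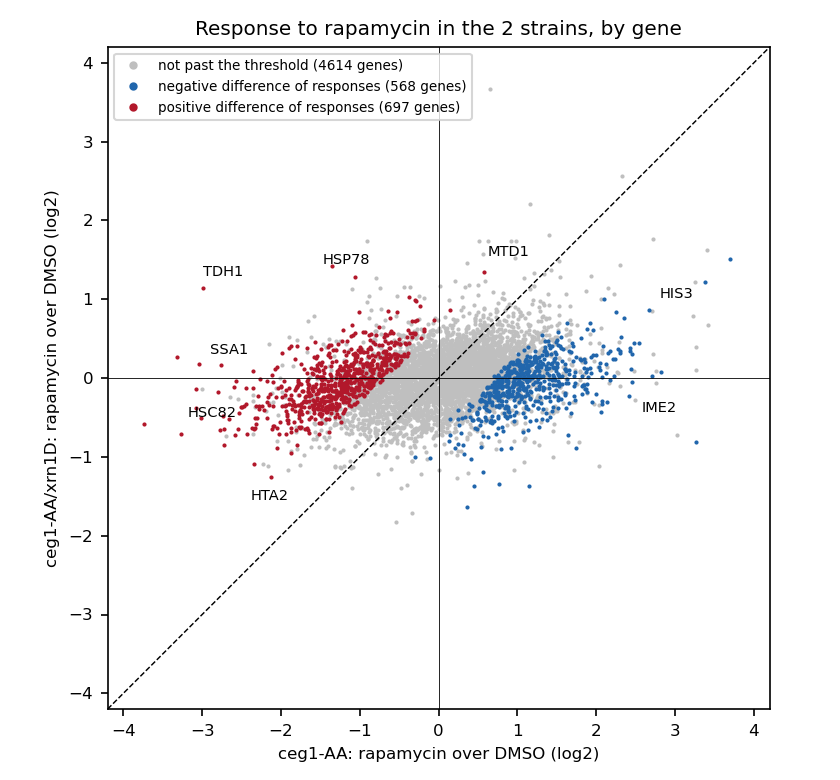
Each point is 1 of 5879 genes, the horizontal axis is the log2 ratio of rapamycin to DMSO in ceg1-AA and the vertical axis the same ratio in ceg1-AA/xrn1D, the dashed line marks equal responses, and colour marks genes past an adjusted p of 0.05 for the difference. The cloud is wide along the horizontal axis and narrow along the vertical one, with 697 positive genes to the left of the dashed line and 568 negative genes to its right.

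A list of Hsp90 with Hsf1 targets and a list of cytosolic Hsp70 genes had the largest positive median differences of the functional lists. The first is not limited to the cytosol and includes the mitochondrial cochaperonin gene HSP10. Of 22 tested members of a list of Hsp90, its cochaperones and other targets of the heat shock factor Hsf1, 13 were positive and 0 negative, with a median difference of 1.60, beside -0.10 for all genes and 11.9% positive among them. The list's median response was 0.01 in ceg1-AA/xrn1D and -1.36 in ceg1-AA. In the list of cytosolic Hsp70, Hsp110 and their partners, 9 of 13 were positive and 1 was negative, with a median difference of 1.45 and median responses of -0.24 in ceg1-AA/xrn1D and -1.92 in ceg1-AA. The number of positive genes in the Hsp90 list was 12 to 17 when any 1 library was left out, fewest without ceg1-AA rapamycin replicate 1 and ceg1-AA/xrn1D rapamycin replicate 1, and in the Hsp70 list 7 to 10 when any 1 library was left out, fewest without ceg1-AA rapamycin replicate 1 and ceg1-AA rapamycin replicate 2. Relative to the median of all genes, the Hsp90 list stood between 1.57 and 1.70 and the Hsp70 list between 1.38 and 1.67 under every scaling, filter, tool and left-out library tried.

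SSA2 (chrXII:95566-97485, minus strand) encodes an abundant constitutive Hsp70. It had 984 and 1236 CPM under rapamycin and 1662 CPM in DMSO in ceg1-AA/xrn1D, against 203 and 184 CPM under rapamycin and 2748 and 2406 CPM in DMSO in ceg1-AA. The ceg1-AA libraries under rapamycin lay below every other library, and the ceg1-AA/xrn1D libraries lay between the ceg1-AA groups. The difference of responses was 3.15 ± 0.30 (SE), with an edgeR adjusted p of 0.000989. Its near copy SSA1 (chrI:139503-141431, minus strand) had 892 and 844 CPM under rapamycin and 770.0 CPM in DMSO in ceg1-AA/xrn1D, against 106 and 130.2 CPM under rapamycin and 766 and 1174 CPM in DMSO in ceg1-AA, and the difference was 3.21 ± 0.35 (SE) with an adjusted p of 0.00115. YAL004W, a frame on the strand opposite SSA1 that the reference annotation does not list, had 114 and 102 CPM under rapamycin and 89.8 CPM in DMSO in ceg1-AA/xrn1D, against 10.5 and 7.95 CPM under rapamycin and 82.8 and 103 CPM in DMSO in ceg1-AA, with a difference of 3.59 ± 0.33 (SE). The SSA genes are similar enough that reads may be split between them, and the counting program's use of strand is not given in the sources used here, so counts of copies and of overlapping frames are uncertain. Another member of the family went the other way. SSA3, a stress-induced Hsp70, had 82.2 and 83.2 CPM under rapamycin and 80.6 CPM in DMSO in ceg1-AA/xrn1D, against 76.2 and 102 CPM under rapamycin and 30.3 and 48.6 CPM in DMSO in ceg1-AA, and its difference was -1.16 ± 0.33 (SE) with an adjusted p of 0.0319 (adjusted p between 0.00138 and 0.124 when any 1 library was left out).

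HSC82 (chrXIII:632355-634472, plus strand), the constitutive Hsp90, had 1577 and 1728 CPM under rapamycin and 1827 CPM in DMSO in ceg1-AA/xrn1D, against 586 and 554 CPM under rapamycin and 5166 and 4436 CPM in DMSO in ceg1-AA. The ceg1-AA/xrn1D libraries lay above both ceg1-AA libraries under rapamycin and below both in DMSO. The difference was 2.93 ± 0.29 (SE), and the near copy HSP82 may share reads with it. STI1 (chrXV:381053-382822, plus strand), the cochaperone that joins Hsp70 to Hsp90, had 335 and 271 CPM under rapamycin and 269.6 CPM in DMSO in ceg1-AA/xrn1D, against 73.3 and 79.5 CPM under rapamycin and 570.4 and 463 CPM in DMSO in ceg1-AA, and the difference was 2.93 ± 0.28 (SE) with an adjusted p of 0.000989. HSP78, the mitochondrial disaggregase, was chosen after its values were seen because it is among the few called genes with a ratio of at least 2-fold in ceg1-AA/xrn1D. It had 696 and 668 CPM under rapamycin and 279 CPM in DMSO in ceg1-AA/xrn1D, against 143 and 187 CPM under rapamycin and 234 and 454 CPM in DMSO in ceg1-AA, with responses of 1.29 in ceg1-AA/xrn1D (adjusted p = 0.152, not past the threshold) and -1.06 in ceg1-AA and a difference of 2.34 ± 0.42 (SE).

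The promoters of these genes are shown because heat shock factor binds repeats of the unit GAA and its complement TTC, and several chaperone genes are among the largest positive differences. The sequences were read from the RefSeq R64 genome, the build named in the submitters' processing notes, and each is given 5′ to 3′ on the gene's own strand. The windows are SSA1 (chrI:141547-141596, minus strand), SSA2 (chrXII:97656-97735, minus strand), HSC82 (chrXIII:632125-632184, plus strand), STI1 (chrXV:380803-380852, plus strand), KAR2 (chrX:381112-381151, plus strand) and HSP10 (chrXV:370980-371019, minus strand), and were chosen after the values and the matches were seen. Capitals mark matches to GAANNTTC or to TTCNNGAA, which overlap where units follow each other. HSP10 encodes the mitochondrial cochaperonin and is shown as a further member of the list with a run of units.
SSA1: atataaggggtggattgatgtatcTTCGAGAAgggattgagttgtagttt
SSA2: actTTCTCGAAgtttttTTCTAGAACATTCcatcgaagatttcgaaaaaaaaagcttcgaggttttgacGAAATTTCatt
HSC82: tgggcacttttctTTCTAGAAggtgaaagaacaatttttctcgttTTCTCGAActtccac
STI1: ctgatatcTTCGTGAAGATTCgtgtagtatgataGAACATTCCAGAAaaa
KAR2: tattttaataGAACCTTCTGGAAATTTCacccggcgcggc
HSP10: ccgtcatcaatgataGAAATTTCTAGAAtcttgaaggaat

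Both motifs are their own reverse complement, so 1 strand covers both. The window searched for all genes ran from 250 bases before to 50 bases after the start of the coding sequence, and 5486 tested genes had one. GAANNTTC was found in 12.1% of all these windows, in 13.9% of those of positive genes and in 11.5% of those of negative genes. TTCNNGAA, a spelling added after the values were seen, was found in 12.9% of all windows, 16.2% of positive and 11.5% of negative ones. In the Hsp90 list GAANNTTC was in 7 of 22 windows, all 7 of them among the 13 positive members, and TTCNNGAA was in 11 of 22, of which 10 were among the positive members. The Hsp70 list did not show this split. There GAANNTTC was in 3 of 13 windows and in 2 of those of the 9 positive members. TTCNNGAA was in 6 of 13 and in 4 of the 9. Over all genes with a window, the median difference was -0.11 with GAANNTTC and -0.10 without it. For TTCNNGAA it was -0.02 with and -0.11 without. A match describes letters and is not evidence of binding. The members of the Hsp90 list were gathered as Hsf1 targets, so an excess of the motif among them is built in.

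Chaperones of other compartments and complexes were also positive, with smaller medians. KAR2 (chrX:381327-383375, plus strand), the Hsp70 of the endoplasmic reticulum lumen, had 539.6 and 675 CPM under rapamycin and 792 CPM in DMSO in ceg1-AA/xrn1D, against 169 and 168 CPM under rapamycin and 1516 and 1319 CPM in DMSO in ceg1-AA. The difference was 2.69 ± 0.28 (SE), with an adjusted p of 0.00103, and the 2 groups under rapamycin did not overlap. PDI1, the protein disulfide isomerase of the same compartment, had a difference of 1.22 ± 0.27 (SE). In the list of endoplasmic reticulum chaperones and unfolded protein response genes, 7 of 21 were positive and 0 negative (median 0.62). In the list of the chaperonin TRiC and prefoldin, which fold actin and tubulin, 6 of 14 were positive and 0 negative (median 0.89), among them CCT3 at 1.46 ± 0.24 (SE) and GIM4 at 1.44 ± 0.34 (SE). The number in the chaperonin list was 2 to 8 when any 1 library was left out, fewest without ceg1-AA rapamycin replicate 2, and GIM4 had an adjusted p between 0.00379 and 0.0676 when any 1 library was left out.

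**Figure D2:**
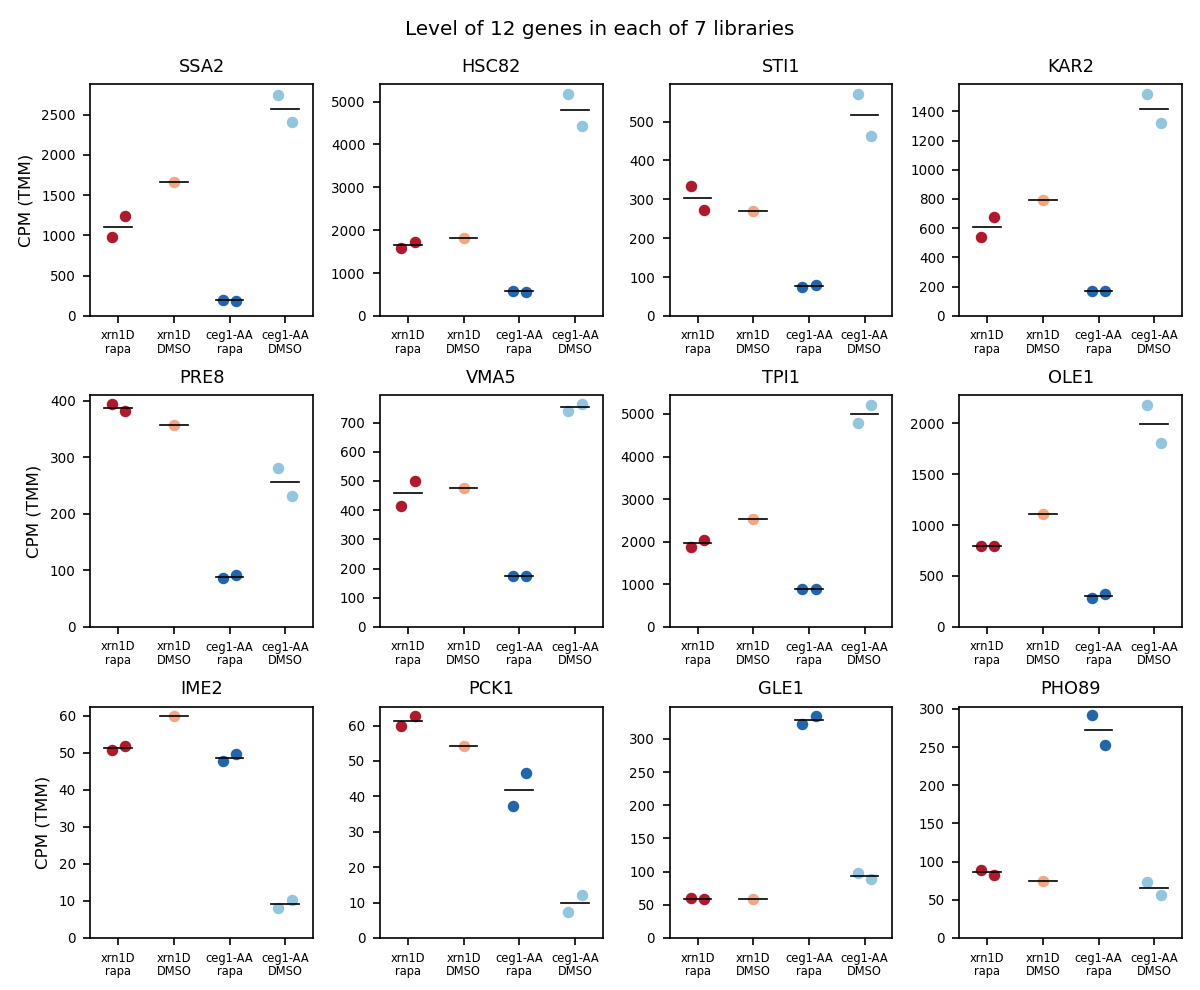
CPM scaled by TMM in each of 7 libraries for 12 genes, chosen after their values were seen from those described in the text, with points for libraries a line for the mean of each group, and the groups in the order ceg1-AA/xrn1D rapamycin and DMSO, then ceg1-AA rapamycin and DMSO. In the upper 8 panels the ceg1-AA rapamycin libraries are the lowest of the 7, and in the lower 4 the ceg1-AA rapamycin libraries lie far above the ceg1-AA DMSO libraries, for IME2 at 47.6 and 49.7 CPM under rapamycin against 8.20 and 10.1 CPM in DMSO.

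Proteasome genes had a positive difference as a group. The proteasome degrades ubiquitin-tagged proteins, and the transcription factor Rpn4 binds a shared promoter element of its subunit genes. Of 36 genes of the list, 18 were positive and 0 negative, with a median difference of 0.68 and median responses of -0.01 in ceg1-AA/xrn1D and -0.68 in ceg1-AA. PRE8 (chrXIII:85987-86739, minus strand), an alpha-type subunit of the 20S core, had 394 and 381 CPM under rapamycin and 356 CPM in DMSO in ceg1-AA/xrn1D, against 85.7 and 92.4 CPM under rapamycin and 281 and 231 CPM in DMSO in ceg1-AA. Both ceg1-AA/xrn1D conditions were above every ceg1-AA library, and the difference was 1.65 ± 0.24 (SE) with an adjusted p of 0.00285. PRE1 (chrV:177835-178431, plus strand), a beta-type subunit of the core, had 137 and 129.7 CPM under rapamycin and 146 CPM in DMSO in ceg1-AA/xrn1D, against 50.5 and 65.6 CPM under rapamycin and 193 and 172 CPM in DMSO in ceg1-AA, and the difference was 1.52 ± 0.25 (SE). The number of positive proteasome genes was 8 to 20 when any 1 library was left out, fewest without ceg1-AA rapamycin replicate 2.

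The Rpn4 element is shown in 3 promoters of the list, PRE8 (chrXIII:86830-86879, minus strand), PRE1 (chrV:177670-177719, plus strand) and RPT3 (chrIV:1261486-1261535, plus strand). RPT3 encodes an ATPase of the regulatory particle. The windows were chosen after the matches were seen, and capitals mark GGTGGCAAA.
PRE8: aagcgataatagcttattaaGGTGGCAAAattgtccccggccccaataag
PRE1: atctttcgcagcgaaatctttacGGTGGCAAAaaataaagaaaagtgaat
RPT3: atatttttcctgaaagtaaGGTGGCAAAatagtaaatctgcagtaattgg

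Searched on both strands, GGTGGCAAA was in 1.28% of the windows of all tested genes, in 3.60% of those of positive genes and in 0.719% of those of negative genes. It was in 28 of the 36 proteasome windows (77.8%) and in 15 of the 18 of positive members, so members with and without the element were called. Those 15 are among the 24 windows of positive genes that held the element. The larger share among positive genes therefore mostly restates the proteasome calls. AGGGG, the stress response element bound by Msn2 and Msn4, was searched on both strands as well. It was in 27.9% of the windows of positive genes and in 14.6% of those of negative genes, beside 22.0% of all windows. The other 8 motifs searched had less unequal shares. GATGAG, of ribosome assembly promoters, was in 111 of 667 positive, 128 of 556 negative and 1088 of all 5486 windows. TGACTC, the Gcn4 element, was in 10.8%, 7.55% and 8.18%. The shares lay closer to those of all windows for AAAATTT of rRNA processing promoters, the GATA factor motif GATAAG, the Gcr1 motif CTTCC, the E box CACGTG of Cbf1 and Pho4, the Aft1 motif GCACCC and the Rap1 motif ACCCA. The widest gap was that of the Rap1 motif, found in 29.4% of positive windows and 27.3% of all.

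Glycolysis had the third-largest median among the positive lists, 1.35, with 13 of 21 genes positive and 0 negative. The median response was -0.24 in ceg1-AA/xrn1D and -1.77 in ceg1-AA, where 19 of the genes fell. The number of positive genes was 3 to 19 when any 1 library was left out, fewest without ceg1-AA rapamycin replicate 1. TPI1 (chrIV:555726-556472, minus strand), triose phosphate isomerase, had 1883 and 2050 CPM under rapamycin and 2532 CPM in DMSO in ceg1-AA/xrn1D, against 888 and 882 CPM under rapamycin and 4797 and 5216 CPM in DMSO in ceg1-AA. The ceg1-AA/xrn1D libraries lay between the ceg1-AA groups, and the difference was 2.14 ± 0.27 (SE) with an adjusted p of 0.00158. The largest difference of any gene named here was that of TDH1 (chrX:338271-339269, plus strand), a glyceraldehyde-3-phosphate dehydrogenase with close copies. TDH1 had 148 and 335 CPM under rapamycin and 109.9 CPM in DMSO in ceg1-AA/xrn1D, against 295 and 342 CPM under rapamycin and 535 and 4520 CPM in DMSO in ceg1-AA. Its 2 ceg1-AA DMSO libraries were over 8-fold apart, the difference was 4.12 ± 1.21 (SE) with an adjusted p of 0.035, and without ceg1-AA DMSO replicate 2 it was 1.89 (adjusted p between 9.68e-09 and 0.115 when any 1 library was left out).

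Genes of proton pumping and of lipid synthesis followed. The vacuolar ATPase acidifies the vacuole, and 13 of its 17 genes were positive and 0 negative (median 1.12, with a lowest member at 0.58). The number of positive genes was 9 to 14 when any 1 library was left out, fewest without ceg1-AA rapamycin replicate 2. VMA5 (chrXI:285030-286208, plus strand), subunit C, had 414 and 501 CPM under rapamycin and 475 CPM in DMSO in ceg1-AA/xrn1D, against 174 and 175 CPM under rapamycin and 740.1 and 763 CPM in DMSO in ceg1-AA, and the difference was 2.05 ± 0.25 (SE). VMA4, subunit E, had 164 and 179.6 CPM under rapamycin and 143 CPM in DMSO in ceg1-AA/xrn1D, against 202 and 177 CPM under rapamycin and 577 and 553 CPM in DMSO in ceg1-AA, so that its ceg1-AA/xrn1D libraries were at the level of ceg1-AA under rapamycin, in both conditions, and the difference was 1.84 ± 0.23 (SE). Among fatty acid synthesis and desaturation genes, 6 of 15 were positive and 0 negative (median 0.95), with 2 to 12 when any 1 library was left out, fewest without ceg1-AA rapamycin replicate 1. OLE1 (chrVII:398628-400160, plus strand), the delta-9 desaturase, had 795 and 791 CPM under rapamycin and 1110 CPM in DMSO in ceg1-AA/xrn1D, against 280.0 and 320.0 CPM under rapamycin and 2177 and 1802 CPM in DMSO in ceg1-AA, with a difference of 2.24 ± 0.27 (SE). Among ergosterol genes, 10 of 25 were positive and 1 negative (median 0.75), with 5 to 15 when any 1 library was left out, fewest without ceg1-AA rapamycin replicate 1 and ceg1-AA rapamycin replicate 2. ERG25, a methyl sterol oxidase, was at 1.42 ± 0.31 (SE) and ERG20, farnesyl pyrophosphate synthase, at 1.35 ± 0.25 (SE), while ERG8, phosphomevalonate kinase, was at -0.83 ± 0.25 (SE) (adjusted p between 0.00645 and 0.121 when any 1 library was left out).

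**Figure D3:**
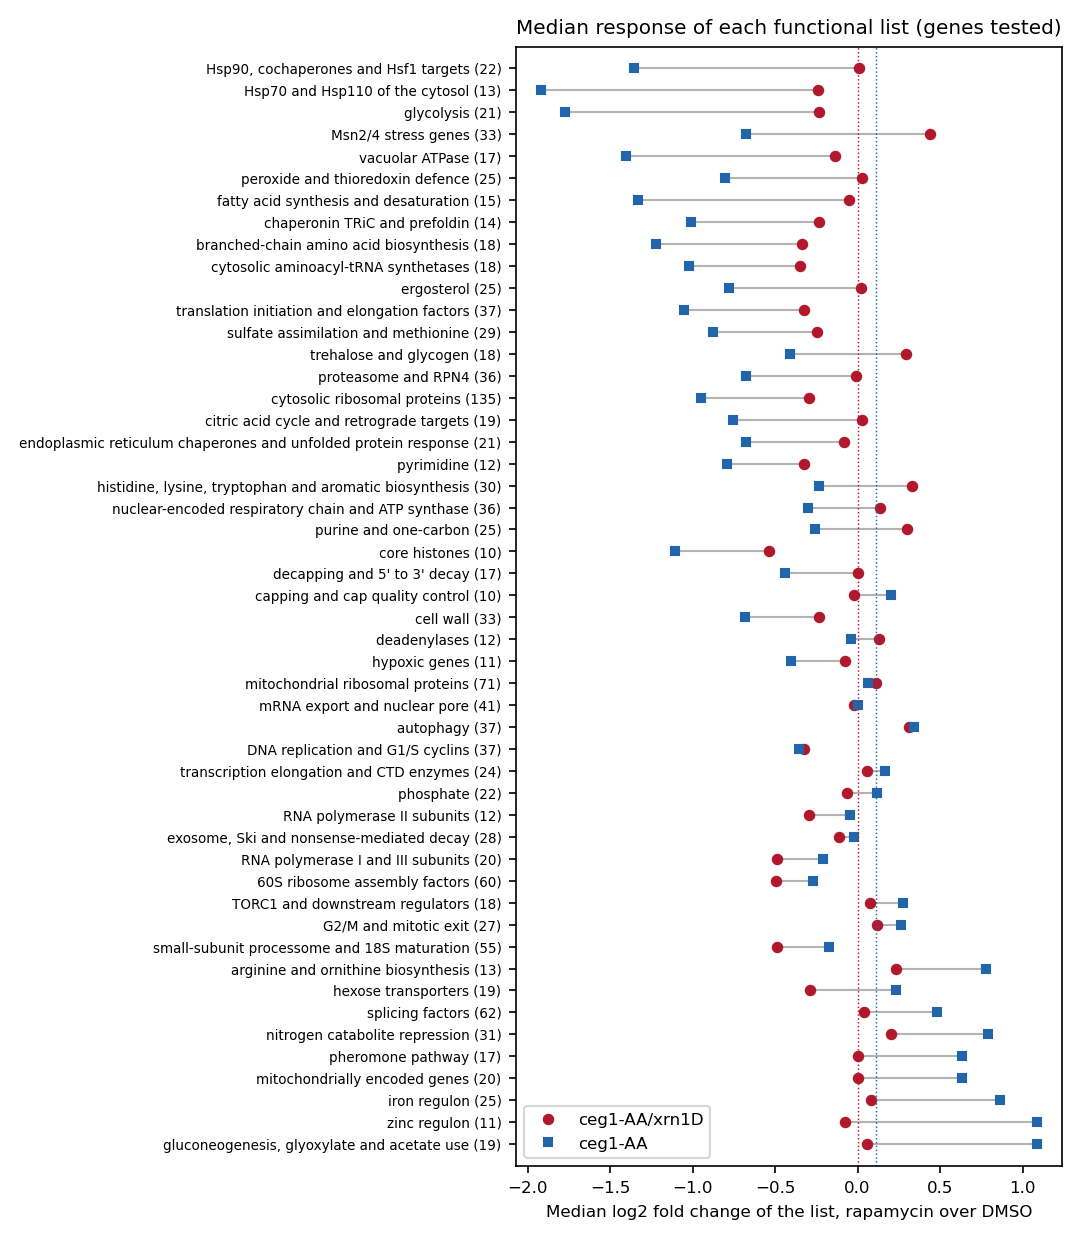
Median log2 ratio of rapamycin to DMSO for each functional list with 10 or more tested genes, in ceg1-AA/xrn1D (circles) and ceg1-AA (squares), ordered by the median difference of responses, with dotted lines at the medians of all genes tested, 0.00 in ceg1-AA/xrn1D and 0.11 in ceg1-AA. Squares range from -1.92 for the Hsp70 list to 1.09 for gluconeogenesis, and circles stay between -0.54 for core histones and 0.44 for Msn2/4 stress genes.

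Genes of the translation machinery were positive more often than all genes (11.9%), while genes that build ribosomes were not. The positive shares were 36.3% for cytosolic ribosomal protein, 40.5% for translation factor and 44.4% for synthetase genes. The most abundant of 5 equal groups of genes, described below, had 41.0% positive. That group held 97.8% of ribosomal protein genes and smaller shares of both lists that build ribosomes. Whether the contrast between these functions goes beyond mRNA level was not tested. Of 135 tested cytosolic ribosomal protein genes, 49 were positive and 2 negative, with a median difference of 0.65 and median responses of -0.29 in ceg1-AA/xrn1D and -0.95 in ceg1-AA. The number of positive genes was 10 to 58 when any 1 library was left out, fewest without ceg1-AA rapamycin replicate 2, and with total-count scaling it was 19 beside 7 negative. The median was 0.71 for the 89 with an intron and 0.62 for the 46 without. RPS11A had 313 and 415 CPM under rapamycin and 465 CPM in DMSO in ceg1-AA/xrn1D, against 234 and 254 CPM under rapamycin and 849.9 and 876 CPM in DMSO in ceg1-AA, and the difference was 1.47 ± 0.27 (SE). The 2 negative members were RPL22B and the stalk protein gene RPP2B (-0.99 ± 0.26 (SE), adjusted p between 0.0145 and 0.0947 when any 1 library was left out). RPL22B (chrVI:64243-64932, minus strand), the minor copy of a large-subunit protein gene pair and an intron-containing gene, had 178 and 209 CPM under rapamycin and 238 CPM in DMSO in ceg1-AA/xrn1D, against 237 and 176 CPM under rapamycin and 51.6 and 41.5 CPM in DMSO in ceg1-AA. The ceg1-AA DMSO libraries stood alone at the low end, and the difference was -2.44 ± 0.28 (SE) with an adjusted p of 0.00148. Paired ribosomal protein genes may share reads.

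Of 37 translation initiation and elongation factor genes, 15 were positive and 0 negative (median 0.74), with 5 to 21 when any 1 library was left out, fewest without ceg1-AA rapamycin replicate 1. TEF1, elongation factor 1-alpha, which has an identical-protein copy, had 1309 and 1617 CPM under rapamycin and 2265 CPM in DMSO in ceg1-AA/xrn1D, against 1149 and 1222 CPM under rapamycin and 6753 and 5147 CPM in DMSO in ceg1-AA, and the difference was 1.70 ± 0.32 (SE). EFB1 was at 1.88 ± 0.38 (SE), and the snoRNA SNR18 lies within it. Of 18 cytosolic aminoacyl-tRNA synthetase genes, 8 were positive and 0 negative (median 0.76), among them GUS1, glutamyl-tRNA synthetase, with 203 and 239 CPM under rapamycin and 255 CPM in DMSO in ceg1-AA/xrn1D, against 165 and 150.1 CPM under rapamycin and 695 and 687 CPM in DMSO in ceg1-AA and a difference of 1.93 ± 0.24 (SE). The number of positive synthetase genes was 2 to 13 when any 1 library was left out, fewest without ceg1-AA rapamycin replicate 1 and ceg1-AA rapamycin replicate 2.

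In the small-subunit processome list 1 of 55 was positive and 4 were negative (median -0.29), and among the 60S assembly factors 0 of 60 were positive and 4 negative (median -0.21). Median responses of the processome list were -0.49 in ceg1-AA/xrn1D and -0.17 in ceg1-AA, and the median in ceg1-AA turned positive with total-count scaling. RCL1, needed for 18S rRNA processing, had 83.0 and 108 CPM under rapamycin and 142 CPM in DMSO in ceg1-AA/xrn1D, against 198 and 189.8 CPM under rapamycin and 134 and 107 CPM in DMSO in ceg1-AA, and the difference was -1.25 ± 0.26 (SE). NOG2, a GTPase of 60S assembly that hosts SNR191, was at -1.06 ± 0.28 (SE). The other called members were HAS1 (0.91), UTP9 (-1.12), UTP25 (-1.13) and SOF1 (-0.83) of the processome list, and NOC3 (-0.89), DRS1 (-0.76) and REI1 (-0.93) of the 60S list. RRN3 (-0.74) and RPC82 (-1.10) were the called members among 20 genes for RNA polymerases I and III. UTP9, SOF1, NOC3 and DRS1 were named after their values were seen.

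Oxidant defence genes were positive and general stress genes could not be placed. In the peroxide and thioredoxin list 14 of 25 were positive and 1 was negative (median 1.09), with 9 to 16 when any 1 library was left out, fewest without ceg1-AA/xrn1D rapamycin replicate 1. AHP1 (chrXII:368781-369311, plus strand), a thiol peroxiredoxin, had 161 and 135 CPM under rapamycin and 167 CPM in DMSO in ceg1-AA/xrn1D, against 18.1 and 15.9 CPM under rapamycin and 129 and 107 CPM in DMSO in ceg1-AA. The 2 ceg1-AA libraries under rapamycin were the lowest by a wide margin, and the difference was 2.62 ± 0.29 (SE) with an adjusted p of 0.0013. MXR1, a methionine sulfoxide reductase, had 17.9 and 8.19 CPM under rapamycin and 21.3 CPM in DMSO in ceg1-AA/xrn1D, against 6.67 and 12.9 CPM under rapamycin and 74.6 and 117 CPM in DMSO in ceg1-AA, and the difference of 2.56 ± 0.65 (SE) lost its call when replicate 1 of either group under rapamycin was left out (adjusted p between 0.000285 and 0.0813 when any 1 library was left out). The negative member was CTA1, the peroxisomal catalase, at -1.71 ± 0.24 (SE).

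The list of Msn2/4 stress genes had a median difference of 1.20, yet 2 of 33 were positive and 1 was negative, or 6.06% positive, which is below the share of all genes. The called members were GRE3, PNC1 and HBT1 (-1.23 ± 0.34 (SE)). The result depended on which ceg1-AA DMSO library was kept. Without replicate 1 the list's median was 2.03, and 18 were positive and 1 negative. Without replicate 2 the median turned negative, to -0.35, and 2 were positive and 7 negative. Replicate 2 also decided the sign of the medians for trehalose and glycogen genes (0.69, -0.28 without it) and for sulfate assimilation and methionine genes (0.72, -0.37 without it). GRE3, an aldose reductase, had 369.7 and 313 CPM under rapamycin and 224 CPM in DMSO in ceg1-AA/xrn1D, against 56.2 and 65.6 CPM under rapamycin and 91.8 and 193 CPM in DMSO in ceg1-AA, with a difference of 1.82 ± 0.43 (SE) and 1.21 without that library. PNC1, nicotinamidase, had 392 and 355 CPM under rapamycin and 235 CPM in DMSO in ceg1-AA/xrn1D, against 116 and 102 CPM under rapamycin and 144 and 326 CPM in DMSO in ceg1-AA, with a difference of 1.77 ± 0.46 (SE) and 1.07 without it (adjusted p between 5.51e-07 and 0.0699 when any 1 library was left out). Both genes were higher in every ceg1-AA/xrn1D library than in the ceg1-AA libraries under rapamycin.

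Among biosynthetic genes, those for branched-chain amino acids were positive most often, 10 of 18 with 1 negative (median 0.82), and 3 to 12 when any 1 library was left out, fewest without ceg1-AA rapamycin replicate 2. HOM6, homoserine dehydrogenase, had 295 and 319 CPM under rapamycin and 364 CPM in DMSO in ceg1-AA/xrn1D, against 239 and 216 CPM under rapamycin and 889 and 922 CPM in DMSO in ceg1-AA, and the difference was 1.75 ± 0.24 (SE). The negative member was LEU3, the pathway's transcription factor, at -0.84 ± 0.23 (SE) (adjusted p between 0.00941 and 0.0926 when any 1 library was left out). Sulfate and methionine genes had 8 positive and 3 negative of 29, and the number of positive ones was 3 to 17 when any 1 library was left out, fewest without ceg1-AA rapamycin replicate 1 and most without ceg1-AA DMSO replicate 1. SAM2, S-adenosylmethionine synthetase, was at 1.67 ± 0.21 (SE), and the negative members named by the rule were the regulators MET30 (-1.12 ± 0.21 (SE)) and MET31 (-1.18 ± 0.33 (SE)), beside MET4 (-0.93), named after its value was seen. Histidine, lysine and aromatic genes had 7 positive and 2 negative of 30 (median 0.46), and the number of positive ones was 1 to 8 when any 1 library was left out, fewest without ceg1-AA/xrn1D rapamycin replicate 2. HIS3 was the largest negative one, with 139 and 154 CPM under rapamycin and 80.6 CPM in DMSO in ceg1-AA/xrn1D, against 155 and 195 CPM under rapamycin and 32.0 and 22.3 CPM in DMSO in ceg1-AA and a difference of -1.81 ± 0.29 (SE). Both strains carry a HIS marker whose sequence was not examined here, so whether its reads count toward HIS3 is not known.

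Purine and one-carbon genes split. Of 25, 8 were positive and 4 negative, and the median of 0.44 turned negative with total-count scaling. Positive purine genes numbered 4 to 11 when any 1 library was left out, fewest without ceg1-AA rapamycin replicate 2. ADE12, adenylosuccinate synthase, had 482 and 473 CPM under rapamycin and 242 CPM in DMSO in ceg1-AA/xrn1D, against 420.0 and 477 CPM under rapamycin and 489 and 604 CPM in DMSO in ceg1-AA, and the difference of 1.26 ± 0.26 (SE) came with a response in ceg1-AA (-0.28) that was not past the threshold (adjusted p = 0.17). IMD2 and IMD4, which encode IMP dehydrogenase of the guanine nucleotide branch and are close copies, went the other way. IMD2 had 99.8 and 108 CPM under rapamycin and 78.5 CPM in DMSO in ceg1-AA/xrn1D, against 374 and 389.6 CPM under rapamycin and 134 and 128 CPM in DMSO in ceg1-AA, so that its ceg1-AA libraries under rapamycin were alone at the high end, and the difference was -1.14 ± 0.21 (SE) with an adjusted p of 0.00678. IMD4, which hosts SNR54, was at -1.84 ± 0.29 (SE). The other negative members were ADE2 (-0.94) and HPT1 (-0.70), named after their values were seen. Of 12 pyrimidine genes, URA1 (0.93 ± 0.27 (SE)) and URA4 (1.09 ± 0.23 (SE)) were positive and FUR4, the uracil permease (-1.49 ± 0.24 (SE)), was negative.

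Nuclear genes for respiration had modest positive medians. In the citric acid cycle list 6 of 19 were positive and 0 negative (median 0.63), with 3 to 9 when any 1 library was left out, fewest without ceg1-AA rapamycin replicate 2. The list was led by LSC2, a succinyl-CoA ligase subunit, at 2.03 ± 0.26 (SE). In the respiratory chain and ATP synthase list 5 of 36 were positive (13.9%) and 0 negative, beside 11.9% positive and 9.66% negative among all genes. The list's positive share was thus near that of all genes, and its median of 0.45 turned negative with total-count scaling. SDH3, a succinate dehydrogenase subunit, had 76.6 and 76.6 CPM under rapamycin and 76.1 CPM in DMSO in ceg1-AA/xrn1D, against 41.0 and 35.8 CPM under rapamycin and 100.0 and 82.1 CPM in DMSO in ceg1-AA, and the difference was 1.26 ± 0.27 (SE). The other positive members were SDH4 (1.71 ± 0.41 (SE)), COR1 (0.92), ATP5 (1.09) and ATP7 (1.23), of which the last 3 were named after their values were seen, and the number was 1 to 13 when any 1 library was left out, fewest without ceg1-AA rapamycin replicate 2 and ceg1-AA/xrn1D rapamycin replicate 1 and ceg1-AA/xrn1D rapamycin replicate 2. The 20 tested mitochondrially encoded genes had a median log2 difference from ceg1-AA DMSO of -7.07 in ceg1-AA/xrn1D under rapamycin, -7.11 in ceg1-AA/xrn1D in DMSO and 0.63 in ceg1-AA under rapamycin. edgeR called none of the 20 (0 at an unadjusted p under 0.05, 0 positive and 0 negative with DESeq2), with a median difference of -0.57. The ratio in ceg1-AA/xrn1D was taken at these low levels, so the absence of calls does not show equal responses. The strains differed in this way in both conditions, so XRN1 status and the low level of these RNAs cannot be told apart for any list. The part of this strain difference in the results for respiration and for other functions was not tested. Leaving the mitochondrially encoded genes out of the fit gave 703 positive and 575 negative genes.

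Genes for growth on carbon sources other than glucose had negative differences. Of 19 genes of gluconeogenesis, the glyoxylate cycle and acetate use, 9 were negative and 1 was positive, with a median of -1.06, beside 9.66% negative among all genes. The median response was 0.05 in ceg1-AA/xrn1D and 1.09 in ceg1-AA. PCK1 (chrXI:631152-632801, plus strand), phosphoenolpyruvate carboxykinase, had 59.7 and 62.6 CPM under rapamycin and 54.2 CPM in DMSO in ceg1-AA/xrn1D, against 37.1 and 46.7 CPM under rapamycin and 7.38 and 12.2 CPM in DMSO in ceg1-AA. The ceg1-AA DMSO libraries were below all 5 others, and the difference was -1.95 ± 0.38 (SE) with an adjusted p of 0.0078. ATO2, a putative ammonium and acetate transporter gene, had 71.5 and 77.7 CPM under rapamycin and 57.2 CPM in DMSO in ceg1-AA/xrn1D, against 57.1 and 70.6 CPM under rapamycin and 8.20 and 16.2 CPM in DMSO in ceg1-AA, and the difference was -2.04 ± 0.38 (SE). The positive member of the list was ALD6, the cytosolic aldehyde dehydrogenase used during fermentation, at 2.51 ± 0.38 (SE). The number of negative genes was 2 to 10 when any 1 library was left out, fewest without ceg1-AA rapamycin replicate 2 and ceg1-AA/xrn1D rapamycin replicate 2.

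Zinc and iron genes were negative more often than positive, and so were phosphate genes, though the median of that list was near that of all genes. Of 11 genes of the zinc regulon, 6 were negative and 0 positive (median -0.91), with 2 to 5 when any 1 library was left out, fewest without ceg1-AA rapamycin replicate 1 and ceg1-AA rapamycin replicate 2 and ceg1-AA/xrn1D rapamycin replicate 1. ZRT1 (chrVII:20978-22108, plus strand), the high-affinity zinc transporter, had 63.4 and 70.5 CPM under rapamycin and 84.1 CPM in DMSO in ceg1-AA/xrn1D, against 348 and 504 CPM under rapamycin and 74.6 and 129.7 CPM in DMSO in ceg1-AA. Here the ceg1-AA libraries under rapamycin stood alone at the high end, and the difference was -2.40 ± 0.37 (SE) with an adjusted p of 0.00389. ZRT2, the low-affinity transporter, had 460.0 and 503 CPM under rapamycin and 530.3 CPM in DMSO in ceg1-AA/xrn1D, against 486 and 529.7 CPM under rapamycin and 200.0 and 222 CPM in DMSO in ceg1-AA, with the ceg1-AA DMSO libraries alone at the low end and a difference of -1.41 ± 0.23 (SE). Of 25 iron regulon genes, 10 were negative and 1 was positive (median -0.65), with 5 to 11 when any 1 library was left out, fewest without ceg1-AA rapamycin replicate 2. The positive member was ATX1 (1.36), the copper chaperone gene, named after its value was seen. The ferric reductase genes FRE2 and FRE5 were at -1.67 ± 0.28 (SE) and -1.65 ± 0.32 (SE). Of 22 phosphate genes, 5 were negative and 2 positive, and the list's median of -0.12 was near that of all genes and turned positive without ceg1-AA DMSO replicate 2. The number of negative ones was 2 to 7 when any 1 library was left out, fewest without ceg1-AA rapamycin replicate 1 and ceg1-AA rapamycin replicate 2 and ceg1-AA/xrn1D rapamycin replicate 1 and ceg1-AA/xrn1D rapamycin replicate 2. The other called members were PHM6 (-2.51), SPL2 (-1.79 ± 0.31 (SE)), CTF19 (-0.98) and PHO87 (-0.80), and the positive ones PHO3 (0.77 ± 0.24 (SE)) and VTC4 (0.95 ± 0.27 (SE)), with PHM6, CTF19 and PHO87 named after their values were seen. CTF19 encodes a kinetochore protein, so its place among the 5 negative phosphate genes is doubtful. PHO89 (chrII:796798-798522, minus strand), a sodium-dependent phosphate transporter, had 89.2 and 82.7 CPM under rapamycin and 75.0 CPM in DMSO in ceg1-AA/xrn1D, against 291 and 252 CPM under rapamycin and 73.8 and 56.8 CPM in DMSO in ceg1-AA, and the difference was -1.85 ± 0.25 (SE) with an adjusted p of 0.00205.

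Nitrogen genes were called negative more often than positive, beside 9.66% negative and 11.9% positive among all genes. Under nitrogen catabolite repression, cells with a good nitrogen source keep genes for poor sources off. Of 31 such genes 6 were negative (19.4%) and 2 positive (6.45%), with a median of -0.53. DESeq2 called 5 negative and 2 positive. Relative to the median of all genes, the list's median was -0.43, but only -0.06 without ceg1-AA rapamycin replicate 2. GZF3, a GATA-type repressor of the pathway, had 97.3 and 102 CPM under rapamycin and 93.0 CPM in DMSO in ceg1-AA/xrn1D, against 135 and 137 CPM under rapamycin and 36.1 and 29.4 CPM in DMSO in ceg1-AA, with a difference of -1.95 ± 0.24 (SE), and PUT4, the proline permease, was at -1.89 ± 0.37 (SE). The positive members were BAT2 (1.81 ± 0.36 (SE)) and PUT2 (1.39 ± 0.31 (SE)). Of 13 arginine and ornithine genes, 3 were negative and 2 positive, namely ARG1, ARG8 (-1.05 ± 0.27 (SE)), CPA1 (-0.76, named after its value was seen), ARG7 (1.16 ± 0.30 (SE)) and CAR1 (0.76 ± 0.24 (SE)). CAR1 was near the threshold (edgeR adjusted p = 0.0477) and lost its call with DESeq2 and limma-trend. ARG1, argininosuccinate synthetase, had 64.8 and 70.5 CPM under rapamycin and 69.3 CPM in DMSO in ceg1-AA/xrn1D, against 133 and 103 CPM under rapamycin and 39.3 and 43.6 CPM in DMSO in ceg1-AA, and the difference was -1.55 ± 0.27 (SE).

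The most negative called genes with a mean count of at least 50 were of mixed function, several of them low in ceg1-AA in DMSO. IME2 (chrX:221390-223327, plus strand), a kinase of early meiosis, had 50.8 and 51.8 CPM under rapamycin and 59.9 CPM in DMSO in ceg1-AA/xrn1D, against 47.6 and 49.7 CPM under rapamycin and 8.20 and 10.1 CPM in DMSO in ceg1-AA. It was at about the same level in both ceg1-AA/xrn1D conditions and in ceg1-AA under rapamycin, the difference was -2.64 ± 0.33 (SE), and the adjusted p was 0.00154. RED1, a component of the meiotic chromosome axis, had 31.7 and 30.4 CPM under rapamycin and 30.8 CPM in DMSO in ceg1-AA/xrn1D, against 52.4 and 62.6 CPM under rapamycin and 15.6 and 11.2 CPM in DMSO in ceg1-AA, and the difference was -2.07 ± 0.36 (SE). EST2 (chrXII:766542-769196, plus strand), the catalytic subunit of telomerase, had 51.0 and 56.5 CPM under rapamycin and 66.4 CPM in DMSO in ceg1-AA/xrn1D, against 77.1 and 90.4 CPM under rapamycin and 23.8 and 19.3 CPM in DMSO in ceg1-AA, and the difference was -2.25 ± 0.30 (SE) with an adjusted p of 0.00181. AIM33 (-2.20 ± 0.40 (SE)), AST2 (-2.01 ± 0.38 (SE)) and the less studied frames YKR015C (-2.50 ± 0.52 (SE)) and YIL165C (-2.09 ± 0.44 (SE)) completed the 10 largest negative differences under that rule. APE3, vacuolar aminopeptidase Y, was among the 10 largest positive ones, with 784 and 730.0 CPM under rapamycin and 776 CPM in DMSO in ceg1-AA/xrn1D, against 175 and 148 CPM under rapamycin and 961 and 959 CPM in DMSO in ceg1-AA and a difference of 2.53 ± 0.26 (SE).

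Lists of RNA synthesis, processing and decay genes had positive and negative shares near or below those of all genes, 11.9% and 9.66%. Of 62 splicing factor genes, 6 were negative and 0 positive (median -0.44). The number of negative ones was 0 to 11 when any 1 library was left out, fewest without ceg1-AA rapamycin replicate 2 and ceg1-AA/xrn1D rapamycin replicate 2, and most, 11, without ceg1-AA DMSO replicate 1. Among them were CUS1, a U2 snRNP protein gene, at -1.30 ± 0.31 (SE) and PRP24, a U6 snRNP protein gene, at -1.43 ± 0.39 (SE) (adjusted p between 0.0119 and 0.0808 when any 1 library was left out). Of 41 mRNA export and nuclear pore genes, 3 were positive and 2 negative. GLE1 (chrIV:88248-89864, plus strand), an export factor that activates the helicase Dbp5, had 59.7 and 58.6 CPM under rapamycin and 58.1 CPM in DMSO in ceg1-AA/xrn1D, against 322 and 335 CPM under rapamycin and 97.5 and 88.2 CPM in DMSO in ceg1-AA. The ceg1-AA libraries under rapamycin were the highest by more than 3-fold, the ceg1-AA/xrn1D libraries all lay between 58.1 and 59.7 CPM, and the difference was -1.79 ± 0.22 (SE) with an adjusted p of 0.00151. SUB2, an export helicase of the TREX complex, was at 1.34 ± 0.26 (SE). The other called genes of the list were HRP1 (1.32 ± 0.24 (SE)), DBP5 (1.05), named after its value was seen, and THP1 (-1.40 ± 0.42 (SE)). edgeR called none of 12 RNA polymerase II subunit genes (0 at an unadjusted p under 0.05, 0 positive and 0 negative with DESeq2) and none of 24 transcription elongation and CTD enzyme genes (5 at an unadjusted p under 0.05, 0 positive and 0 negative with DESeq2).

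Of 10 genes of capping and cap quality control, 1 was positive and 1 was negative. DCS1, the scavenger decapping enzyme, had 172 and 149.5 CPM under rapamycin and 119 CPM in DMSO in ceg1-AA/xrn1D, against 18.1 and 40.7 CPM under rapamycin and 53.3 and 90.2 CPM in DMSO in ceg1-AA, and its difference of 1.70 ± 0.45 (SE) (adjusted p = 0.024) lost its call in 5 of 15 alternatives (adjusted p between 0.000106 and 0.084 when any 1 library was left out). DXO1, a decapping exonuclease for faulty caps, had 106 and 128 CPM under rapamycin and 119.7 CPM in DMSO in ceg1-AA/xrn1D, against 126 and 128 CPM under rapamycin and 59.8 and 65.9 CPM in DMSO in ceg1-AA, so that the ceg1-AA DMSO libraries were the lowest, and the difference was -1.05 ± 0.24 (SE). Of 17 decapping and 5′ to 3′ decay genes, 2 were positive and 0 negative. DHH1, a helicase that promotes decapping, had 432 and 493 CPM under rapamycin and 462 CPM in DMSO in ceg1-AA/xrn1D, against 63.8 and 50.7 CPM under rapamycin and 124 and 124 CPM in DMSO in ceg1-AA. It was over 3-fold higher in each ceg1-AA/xrn1D library than in any ceg1-AA library, while the difference of responses was 1.11 ± 0.25 (SE). PAT1, which binds the ends of mRNAs in decapping, was at 0.93 ± 0.28 (SE) (adjusted p between 0.000813 and 0.117 when any 1 library was left out). XRN1 itself allows no difference, having 0 counts in 1 strain, and fell by 0.88 on the log2 scale in ceg1-AA. CAF130 (-0.75 ± 0.23 (SE)), of the Ccr4-Not complex, was the called member of 12 deadenylase genes, and NAB3 (1.03 ± 0.31 (SE)) and AIR1 (-0.83 ± 0.26 (SE)), which act in nuclear RNA surveillance, were those of 28 exosome, Ski and nonsense-mediated decay genes. AIR1 was near the threshold (edgeR adjusted p = 0.0475) and lost its call with DESeq2 and limma-trend.

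The lists that follow are to be read beside 9.66% negative and 11.9% positive among all genes. Pheromone pathway genes had 3 negative and 0 positive members of 17. SST2, which desensitizes cells to pheromone, had 428 and 426 CPM under rapamycin and 373 CPM in DMSO in ceg1-AA/xrn1D, against 772 and 745 CPM under rapamycin and 301 and 233 CPM in DMSO in ceg1-AA, with a difference of -1.31 ± 0.25 (SE), and the phosphatase gene MSG5 was at -1.52 ± 0.32 (SE). The third was the kinase gene KSS1 (-0.94), named after its value was seen. Cell wall genes had 9 positive and 1 negative members of 33, and the number of positive ones was 3 to 10 when any 1 library was left out, fewest without ceg1-AA rapamycin replicate 2. The list's median of 0.16 turned negative with total-count scaling. CCW12, a major wall mannoprotein, was at 1.67 ± 0.31 (SE), and RLM1, the transcription factor of the cell integrity pathway, at -1.70 ± 0.30 (SE). Of 71 mitochondrial ribosomal protein genes, MRPL6 (0.86 ± 0.28 (SE)) and MRPS12 (0.74 ± 0.22 (SE)) were positive and RSM22 (-0.85 ± 0.24 (SE)) and MRPL4 (-1.60) negative. MRPL6 was near the threshold (edgeR adjusted p = 0.0478) and lost its call with DESeq2 and limma-trend. The shares of this list, 2.82% positive and 2.82% negative, were below those of all genes, and DESeq2 called 0 positive and 0 negative. Of 37 autophagy genes, ATG44 (2.09) and ATG42 (1.18 ± 0.33 (SE)) were positive and ATG5 (-0.99 ± 0.24 (SE)), ATG12 (-1.17 ± 0.34 (SE)), ATG31 (-1.53) and ATG32 (-2.06) negative. The shares, 5.41% positive and 10.8% negative, were below and near those of all genes. DESeq2 called 2 positive and 0 negative autophagy genes, and ATG42 and ATG12 lost their calls with limma-trend. Of 18 genes of the TORC1 pathway, which rapamycin inhibits in strains without tor1-1, URE2 (0.88 ± 0.23 (SE)) was positive (5.56%) and TAP42 (-0.98 ± 0.31 (SE)) and SCH9 (-0.87 ± 0.22 (SE)) were negative (11.1%). MRPL4, ATG44, ATG31 and ATG32 were named after their values were seen.

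Cell cycle genes were called about as often as all genes, of which 11.9% were positive and 9.66% negative. Of 37 DNA replication and G1/S genes, 3 were positive (8.11%) and 4 negative (10.8%). RNR2, a ribonucleotide reductase subunit, had 176 and 262 CPM under rapamycin and 224 CPM in DMSO in ceg1-AA/xrn1D, against 342 and 323 CPM under rapamycin and 969.6 and 1147 CPM in DMSO in ceg1-AA, and the difference was 1.64 ± 0.32 (SE). CLN3, the G1 cyclin that starts the cycle, had 46.8 and 47.3 CPM under rapamycin and 61.3 CPM in DMSO in ceg1-AA/xrn1D, against 59.0 and 34.8 CPM under rapamycin and 17.2 and 27.4 CPM in DMSO in ceg1-AA, with a difference of -1.48 ± 0.41 (SE), and CDC6, a replication licensing factor, was at -1.38 ± 0.28 (SE). Of 27 G2/M and mitotic exit genes, 2 were positive (7.41%) and 3 negative (11.1%). The positive ones, CTS1 (1.76 ± 0.29 (SE)) and DSE2 (1.17 ± 0.29 (SE)), act on the wall of the daughter cell at separation. CLB4 (-1.10 ± 0.32 (SE)) and MOB1 (-0.94 ± 0.23 (SE)) were negative, as was CLB1 (-0.84), named after its value was seen. Among core and linker histone genes, the positive ones were HTA2 and the linker histone gene HHO1 (1.29 ± 0.42 (SE)), of 10, and the list's median of 0.38 turned negative with total-count scaling. HHO1 was near the threshold (edgeR adjusted p = 0.0498) and lost its call with DESeq2 and limma-trend. Of 19 hexose transporter and glucose sensing genes, HXT2 (2.08 ± 0.30 (SE)) was positive, and MIG2 (-1.09 ± 0.33 (SE)) and HXT9 (-1.91), named after its value was seen, were negative.

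Where ceg1-AA/xrn1D stood in DMSO varied between functions. Relative to ceg1-AA DMSO, the median of the Hsp90 list was -0.10 in ceg1-AA/xrn1D under rapamycin, -0.19 in ceg1-AA/xrn1D in DMSO and -1.32 in ceg1-AA under rapamycin. For glycolysis the values were -1.43, -0.99 and -1.76, and for cytosolic ribosomal protein genes -1.56, -1.25 and -0.95. For gluconeogenesis they were 1.12, 1.22 and 1.06. The Hsp90 list of ceg1-AA/xrn1D was thus close to ceg1-AA DMSO in both conditions, whereas ribosomal protein and gluconeogenesis genes in ceg1-AA/xrn1D in DMSO were already as far from ceg1-AA DMSO, in the same direction, as those of ceg1-AA under rapamycin. Among called genes that moved at least 2-fold in ceg1-AA, the level in ceg1-AA/xrn1D in DMSO was nearer to ceg1-AA rapamycin than to ceg1-AA DMSO for 242 of 493 positive genes (49.1%) and 234 of 338 negative genes (69.2%), beside 793 of 1425 among all genes (55.7%). The difference of responses contains this library, so these shares describe the called genes and test nothing. With 1 library behind them they have no replicate check.

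**Figure D4:**
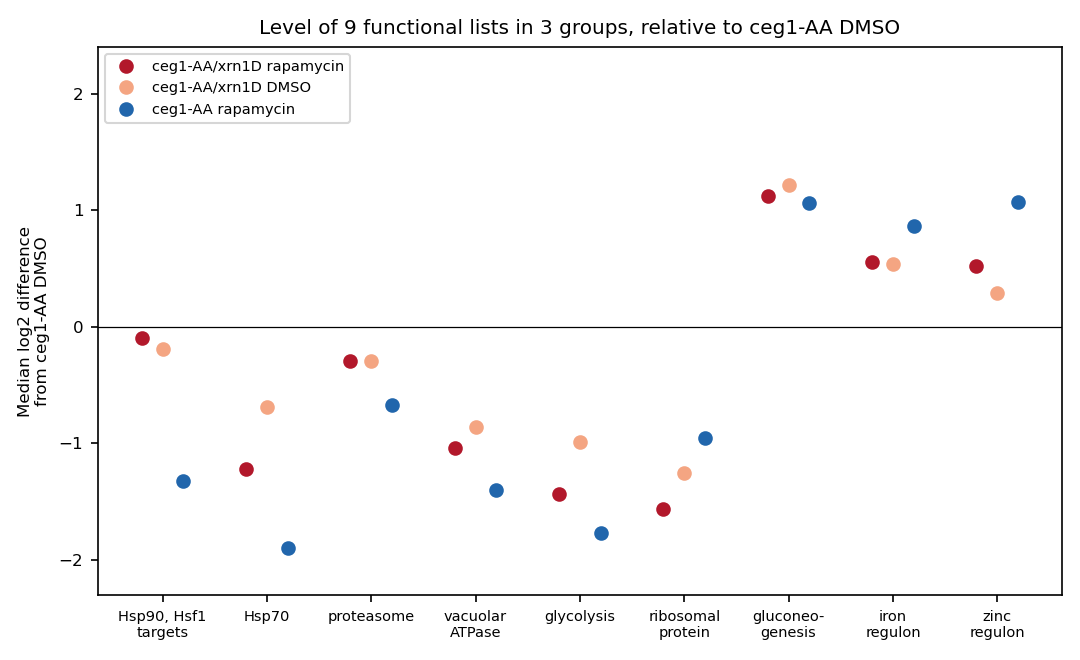
Median level of 9 functional lists, as the log2 difference from the mean of ceg1-AA DMSO, in ceg1-AA/xrn1D under rapamycin, ceg1-AA/xrn1D in DMSO and ceg1-AA under rapamycin. The Hsp90 list sits at -0.10 and -0.19 in ceg1-AA/xrn1D and at -1.32 in ceg1-AA rapamycin, while gluconeogenesis sits at 1.12, 1.22 and 1.06.

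A ratio of at least 2-fold between rapamycin and DMSO in ceg1-AA/xrn1D was found in 18 of the called genes, of which 7 were positive and 11 negative. MTD1, a one-carbon metabolism dehydrogenase, rose in both strains and more in ceg1-AA/xrn1D, with 217 and 228 CPM under rapamycin and 88.0 CPM in DMSO in ceg1-AA/xrn1D, against 164 and 176 CPM under rapamycin and 105 and 125 CPM in DMSO in ceg1-AA, responses of 1.34 in ceg1-AA/xrn1D and 0.57 in ceg1-AA, and a difference of 0.77 ± 0.23 (SE) (adjusted p = 0.0358). HTA2, a histone H2A gene with a close copy, fell in both strains and less in ceg1-AA/xrn1D. It had 82.2 and 99.1 CPM under rapamycin and 218 CPM in DMSO in ceg1-AA/xrn1D, against 145 and 145 CPM under rapamycin and 649.9 and 614 CPM in DMSO in ceg1-AA, with responses of -1.26 in ceg1-AA/xrn1D and -2.12 in ceg1-AA and a difference of 0.86 ± 0.23 (SE) (adjusted p = 0.0254, adjusted p between 0.00741 and 0.0893 when any 1 library was left out). HPT1, of purine salvage, had 152 and 158 CPM under rapamycin and 311 CPM in DMSO in ceg1-AA/xrn1D, against 302 and 265 CPM under rapamycin and 362 and 336 CPM in DMSO in ceg1-AA, and the difference was -0.70 ± 0.22 (SE). Neither response was past its own threshold (adjusted p = 0.0577 in ceg1-AA/xrn1D and 0.102 in ceg1-AA). CHA1, serine and threonine deaminase, had 129 and 125 CPM under rapamycin and 62.2 CPM in DMSO in ceg1-AA/xrn1D, against 131 and 181 CPM under rapamycin and 240.1 and 162 CPM in DMSO in ceg1-AA, so the ratio was above 1 in ceg1-AA/xrn1D and below 1 in ceg1-AA, with neither past its threshold, and the difference was 1.40 ± 0.32 (SE). These genes were named after their values were seen. The other 2 genes called in ceg1-AA/xrn1D, INA1 and YMR193C-A, had differences of 0.19 and 0.24 that were not past the threshold (adjusted p = 0.582 and 0.702).

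The sign of the difference went with the level of a gene. Genes were ranked by CPM per kilobase of open reading frame in ceg1-AA DMSO replicate 1, and the difference was computed without that library. From the lowest to the highest of 5 equal groups, the median difference was -0.54, -0.33, -0.20, 0.08 and 0.59, the share of positive genes was 2.98%, 4.17%, 7.32%, 17.0% and 42.2%, and the share of negative genes was 13.8%, 16.7%, 15.5%, 7.99% and 3.06%. With replicate 2 as the level and left out, the medians were -0.68, -0.33, -0.18, 0.12 and 0.68. With all 7 libraries, 41.0% of the genes of the highest group by replicate 1 were positive. Several positive lists belong to that highest group nearly whole, with 97.8% of ribosomal protein genes, 88.2% of vacuolar ATPase genes, 86.1% of proteasome genes and 81.0% of glycolysis genes in it. Read against 41.0%, the positive shares of ribosomal protein (36.3%), translation factor (40.5%) and ergosterol genes (10 of 25) were not above that of abundant mRNAs in general, and that of the synthetase genes was 44.4%. Those of proteasome (18 of 36), glycolysis (61.9%) and vacuolar ATPase genes (76.5%) were higher, as a description with no test. The group behind the 41.0% includes genes of these lists. Its ranking library also enters the difference with all 7 libraries, which can raise that share without any effect. Of the negative lists, 1 of 19 gluconeogenesis genes and 2 of 11 zinc genes were in the highest group.

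Length gave a shallower trend. From the shortest to the longest of 5 equal groups of open reading frames, 12.3%, 15.1%, 15.1%, 9.86% and 6.80% of genes were positive and 3.23%, 7.48%, 10.6%, 14.1% and 12.9% were negative. Of 163 intron-containing genes that do not encode ribosomal proteins, 30 were positive (18.4%) and 6 negative (3.68%), beside 11.9% and 9.66% of all genes. Their median of 0.30 turned negative with total-count scaling. Positive ones numbered 14 to 36 when any 1 library was left out, fewest without ceg1-AA rapamycin replicate 2, and negative ones 1 to 10 when any 1 library was left out, fewest without ceg1-AA rapamycin replicate 2. Of 375 tested frames not in the reference annotation, 30 were positive (8.0%) and 12 negative (3.2%), both below the shares of all genes, with a median of -0.11. Of these frames, 249 had a mean count under 50, and DESeq2 called 22 positive and 1 negative.

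**Figure D5:**
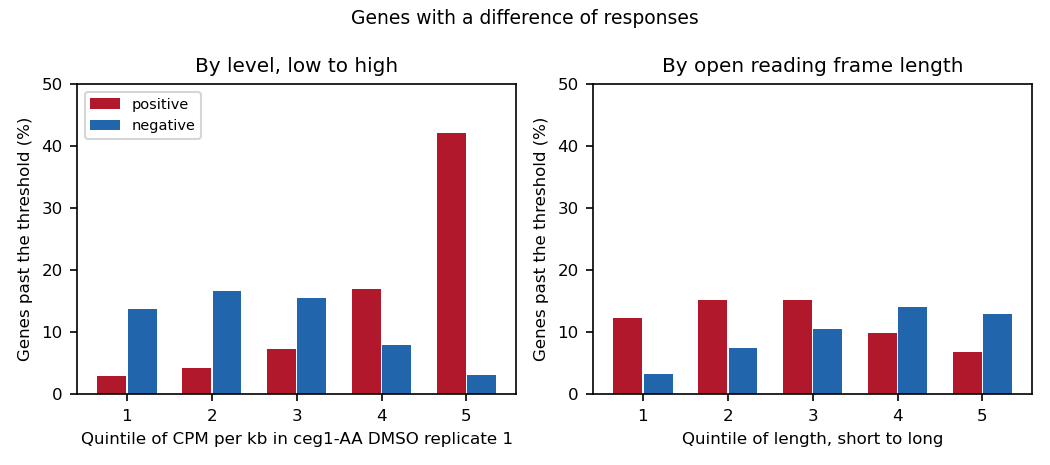
Share of genes, in percent, with a positive (red) or negative (blue) difference of responses, with genes split on the left in 5 equal groups by CPM per kilobase in ceg1-AA DMSO replicate 1, with calls from the fit without that library, and on the right by the length of the open reading frame. Positive shares run from 2.98% in the lowest to 42.2% in the highest group by level, and negative shares from 13.8% to 3.06%.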

How the data were processed

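RNA was measured by sequencing of NEB Ultra II libraries from acid phenol extracts, per the labels' protocols. The authors deposited whole-number read counts per open reading frame, with no normalization. Their tables also hold TPM values that the authors scaled per frame length and a bias factor, which were not used here, and the frame lengths. The submitters' processing notes name the R64 and sacCer3 builds, FastQC 0.11.5, HISAT2 2.1.1, SAMtools 1.15.1 and DESeq2. The counting program and its use of strand are not given in the sources used here. Groups came from the labels. Counts were scaled by TMM, genes with low counts were removed with filterByExpr (5879 of 6600 kept), and edgeR 4.0.16 (R 4.3.3) fitted 1 coefficient for each of 4 groups to all 7 libraries by the quasi-likelihood method, with 3 residual degrees of freedom and a median of 7.69 prior degrees. The difference of responses and each strain's response were contrasts of that fit, and p-values were adjusted by Benjamini-Hochberg over all genes tested, with a threshold of 0.05. The fit was tested on simulated data. CPM values are relative to the library total after TMM scaling.

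Alternatives were RLE, upper-quartile and total-count scaling, the mitochondrially encoded genes left out, no filter, a mean count of at least 50, DESeq2 1.42.0, limma-trend 3.58.1, the replicate number as a block, and each library of the 3 groups with 2 libraries left out in turn. Differences of 8 library combinations used a prior count of 2. The 53 gene lists, the motifs and the members were chosen with earlier results of these data known. Among called genes with a mean count of at least 50, more than 3 counts in some library of every group and 1 sign in all 8 combinations, the text names the 10 largest differences in each direction and up to 2 in each direction per list, beside XRN1 and CEG1. Other genes are said to have been named after their values were seen. Of the list symbols, 5 matched no counted name. Coordinates, introns, lengths and promoters came from the R64 genome and RefSeq annotation, which held 5917 of the 6600 counted frames, and the single-exon lengths were equal for 5628 of 5632. Libraries of ceg1-AA held 935651 to 1618638 counts, so low genes are measured less precisely there. Any limit given for a count of 0 covers counting error only.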

Additional observations from a re-analysis of the deposited data

Results flagged for a closer look

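The responses of ceg1-AA/xrn1D and ceg1-AA to rapamycin differed, by the test of the difference itself (edgeR with Benjamini-Hochberg adjustment), in 697 positive and 568 negative genes of 5879. The 10 largest positive differences among genes with a mean count of at least 50, on the log2 scale, were 4.12 for TDH1, 3.59 for YAL004W, 3.21 for SSA1, 3.15 for SSA2, 2.93 for HSC82, 2.93 for STI1, 2.69 for KAR2, 2.62 for AHP1, 2.56 for MXR1 and 2.53 for APE3. The 10 largest negative differences were -2.64 for IME2, -2.50 for YKR015C, -2.44 for RPL22B, -2.40 for ZRT1, -2.25 for EST2, -2.20 for AIM33, -2.09 for YIL165C, -2.07 for RED1, -2.04 for ATO2 and -2.01 for AST2. Each kept its sign in all 8 combinations of 1 library per group, and each contrast contains the single ceg1-AA/xrn1D DMSO library.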

How the results depend on the processing

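With total counts alone as the scaling, 316 genes were positive and 1776 negative, against 697 and 568 with TMM, and all 316 and all 568 were shared. Upper-quartile scaling gave 548 and 823, of which 548 and 568 were shared. DESeq2 called 622 positive and 223 negative genes, of which 576 and 223 were shared. Leaving out 1 library in turn gave 328 to 866 positive and 221 to 731 negative genes. The cause of these moves was not tested, beyond the fact that a scaling shifts all genes together and a left-out library lowers the number of samples. Samples with the same replicate number did not deviate together, with correlations of 0.131, -0.149 and -0.027 between groups, and with the replicate number as a block 531 genes were positive and 394 negative, of which 521 and 373 were shared. Of 2025 alternatives of named genes, 1696 kept direction and side of the threshold, 329 kept direction and lost the call, and 0 changed direction. Of 133 called named genes, 70 kept the call under every alternative. A gene printed without a range of adjusted p is not for that reason among the 70. Of 793 alternatives of list medians, 132 moved by more than the spread between library combinations. With 1 library in ceg1-AA/xrn1D in DMSO and 962326 and 935651 counts in the ceg1-AA libraries under rapamycin, small differences of low genes could not be seen at this depth.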
